A study of Mus musculus with 48 samples.

Results

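Chromatin that stayed highly accessible whatever the state of NODAL/Activin signalling, away from promoters, was examined in P19 cells, a mouse embryonic teratoma line. The peak lists of 4 signalling states were merged wherever peaks overlapped by at least 1 bp, which gave 287329 regions. A region was kept if its highest fold enrichment was at least 5 in each of the 4 lists and if it lay more than 2 kb from every start site of a curated RefSeq transcript on mm10. The members were thus selected on fold enrichment and distance alone. They are 5567 constitutively strong distal regions, 1.94% of all merged regions and 3.87% of the 143705 distal regions found in every list. The remaining 138138 served for comparison and are called other distal shared regions.

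Accessibility was measured by ATAC-seq, in which the Tn5 transposase inserts sequencing adapters into open chromatin. Inhibited cells received 10 µM SB-431542, an inhibitor of the NODAL/Activin type I receptors, overnight, and were held in it for 1 h more after a wash. Acute and prolonged signalling were obtained by washing out the inhibitor and adding 20 ng/ml Activin for 1 h or 8 h, whereas untreated cells signalled through the NODAL and GDF3 ligands that they make themselves. The labels list 48 libraries, 12 for each state in 2 biological replicates of 6, from reactions of 100000 cells. The methods of the study describe fewer sequenced samples, and how these relate to the listed libraries could not be worked out. The authors merged both replicates before peak calling, so each state is 1 list without a measure of spread, and no difference between states could be tested. The samples are populations of cells, in which fewer open cells and less opening per cell cannot be told apart.

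Distal accessible regions are mostly enhancers, where transcription factors and co-activators bind, or insulators, where CTCF binds and stops the cohesin complex that extrudes chromatin loops. CTCF sites and the elements of widely expressed genes are open in many cell types, while enhancers used in development open and close with the factors that bind them. Copies of transposable elements also carry factor-binding sites, and in pluripotent cells some of these are open.

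The sequences that show what the set contains are printed first, each from the plus strand of the mm10 assembly and in lower case. The first 3 carry a CTCF site in capitals: a member 18.9 kb upstream of *Lefty2* (chr1:180874125-180874244), a member 27 kb downstream of the start of *Ltn1* (chr16:87405168-87405287), and a member over the hypersensitive site HS-85.5 of the beta-globin locus (chr7:103942889-103943008), where the capitals are the CTCF-binding site as RefSeq annotates it.
Lefty2: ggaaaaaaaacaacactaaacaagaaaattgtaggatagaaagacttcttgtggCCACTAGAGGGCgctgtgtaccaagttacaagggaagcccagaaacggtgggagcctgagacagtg
Ltn1: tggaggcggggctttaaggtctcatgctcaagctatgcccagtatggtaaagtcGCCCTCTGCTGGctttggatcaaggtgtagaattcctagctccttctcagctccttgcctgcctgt
HS-85.5: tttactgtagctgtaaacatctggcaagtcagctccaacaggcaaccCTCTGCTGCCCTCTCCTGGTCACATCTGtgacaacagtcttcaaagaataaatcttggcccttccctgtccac

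The next 3 lie close to genes of pluripotency and of the NODAL pathway and hold no match to the CTCF motif searched: upstream of *Zfp42* (chr8:43333559-43333678), near *Tdgf1* (chr9:110994864-110994983) and near *Acvr2b* (chr9:119352110-119352229). The second does match the longer form of the right side of a CTCF site that is described with the motifs. They have no capitals and show the sequence at the middle of the accessible core.
Zfp42: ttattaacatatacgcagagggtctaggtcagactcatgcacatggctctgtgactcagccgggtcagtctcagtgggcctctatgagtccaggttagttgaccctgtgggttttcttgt
Tdgf1: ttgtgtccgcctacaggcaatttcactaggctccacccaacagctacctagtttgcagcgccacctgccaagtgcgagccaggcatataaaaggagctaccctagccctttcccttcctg
Acvr2b: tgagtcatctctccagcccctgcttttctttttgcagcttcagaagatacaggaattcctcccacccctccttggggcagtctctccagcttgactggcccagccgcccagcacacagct

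The last 3 show repeated sequence. The members with the 2 highest values, near *Pak3* (chrX:143482996-143483115) and in *Chl1* (chr6:103649112-103649231), are near-copies of each other, and the capitals in the second mark a CENP-B box, the element that the centromere protein CENP-B recognises. The third is typical of a family of 26 members (chr6:82688779-82688978), with the octamer that POU factors such as OCT4 bind in capitals.
Pak3: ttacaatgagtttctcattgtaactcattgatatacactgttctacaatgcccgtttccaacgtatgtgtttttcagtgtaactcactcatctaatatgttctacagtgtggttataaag
Chl1: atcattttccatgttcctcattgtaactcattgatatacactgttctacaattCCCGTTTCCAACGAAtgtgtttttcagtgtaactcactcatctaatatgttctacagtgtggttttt
Octamer family: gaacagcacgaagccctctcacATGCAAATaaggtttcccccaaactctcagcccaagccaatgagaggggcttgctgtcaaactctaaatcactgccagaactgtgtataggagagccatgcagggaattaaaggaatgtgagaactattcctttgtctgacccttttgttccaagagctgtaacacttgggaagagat

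The level of a region in a state was the highest fold enrichment among its peaks there, that is, the mean pileup of reads over the peak caller's local background. Since this value chose the members, their levels are a description. The members had a median of 6.53 in inhibited cells, with quartiles of 5.95 and 7.38. It was 6.01 at 1 h of Activin, 6.48 at 8 h and 6.17 in untreated cells. The other distal shared regions had medians of 2.5, 2.34, 2.46 and 2.47 in the same order. The members thus filled a narrow range just above the threshold, and only 66 of them at 1 h and 146 at 8 h reached 10. Their lowest -log10 q in any list was 42.3, and each formed a single peak in a given list in 99.7% of cases.

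**Figure D1:**
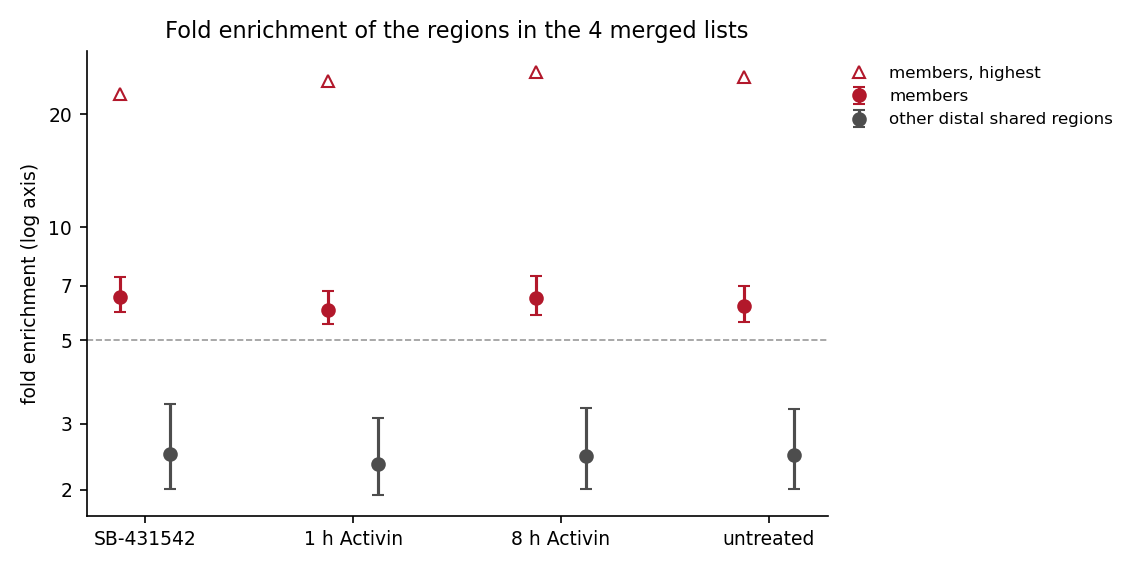
Fold enrichment (log axis) in the 4 merged lists, 1 for each signalling state; circles are medians over the 5567 members (red) and the 138138 other distal shared regions (grey), bars are quartiles, triangles are the highest member, and the dashed line is the threshold of 5. The median of the members lies between 6.01 and 6.53 in every state.

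Reaching 5 in all 4 lists was much less common than reaching it in some. Of the distal shared regions, 15975 were at 5 or more in at least 1 list, and 10408 of these in 1 to 3 lists. In the SB-431542 list alone 11702 reached 5, in the 1 h Activin list 8176, in the 8 h list 11203 and in the untreated list 9539. The 1 h list was the one in which a member was weakest in 45.9% of cases, and the SB-431542 list the one in which it was strongest in 44.7%. Other distal shared regions were also weakest most often in the 1 h list, in 39.6% of cases. At the threshold itself, a member in an intron of *Tmem243* had 5.64, 5.30, 6.8 and 5.00 in the order SB-431542, 1 h, 8 h and untreated, while a non-member near *Akna* had 5.48, 5.00, 5.56 and 5.69, its 1 h value falling below 5 only beyond the second decimal. The 4 other members just inside, near *Dynap*, *Gm1123*, *Slc1a1* and *Gm30223*, and the 4 other non-members just outside, near *Mir7232*, *Utrn*, *Rpl22l1* and *Rftn1*, also had a lowest value that rounds to 5.00. Distance removed another 4247 regions, so that 56.7% of the 9814 regions at 5 or more throughout were distal, against 88.4% of all regions shared by the lists.

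A member's values in the 4 states were close to each other. The highest divided by the lowest had a median of 1.17 over the members and of 1.22 over the other distal shared regions, and it was under 1.25 in 73.8% and 58.5% of them. Because a member had to pass 5 in all lists, this narrower range is in part fixed by the rule. Relative to SB-431542, the median ratio of the members was 0.932 at 1 h, 0.988 at 8 h and 0.948 in untreated cells, and that of all distal shared regions was 0.948, 0.993 and 0.990.

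Few members differed from the inhibited state by as much as 1.5 times, and the rule had used both sides of these ratios. At 1 h of Activin no member was at least 1.5 times higher than with SB-431542 and 16 were at least 1.5 times lower, where 0.0682% and 0.335% of all distal shared regions were. At 8 h, 33 members (0.593%) were higher and 18 (0.323%) lower, where 2.11% and 2.25% of all distal shared regions were. In untreated cells 8 members (0.144%) were higher and 39 (0.701%) lower, where 1.71% and 3.07% of all were. The split at 8 h depended on scaling: with each list divided by its median over shared regions, which selected 5755 regions, 42 of them were higher and 8 lower. The width of the called peak moved with these ratios, and fold enrichment is a mean over that width. Of the 33 members that were higher at 8 h, 13 (39.4%) had a peak at least 1.5 times narrower than with SB-431542, where 7.58% of all members did, and of the 18 that were lower, 7 (38.9%) had a peak at least 1.5 times wider, where 3.41% of all members did. A wider peak also went with 9 of the 16 lower members at 1 h and 14 of the 39 in untreated cells. The part of peak width in the ratios was not tested.

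None of the 5 highest or 5 lowest ratios at 8 h belonged to a member within 50 kb of a gene listed for the NODAL pathway. Only 17 of the 5567 members lay that close to any gene listed for pluripotency, the NODAL pathway, mesendoderm or the WNT pathway. This absence therefore carries little information. The highest, in an intron near *4921515E04Rik*, stood at 6.58 in inhibited cells, 7.13 at 1 h, 12.55 at 8 h and 9.40 in untreated cells, a ratio of 1.91. Close behind came a region 448.3 kb from *Hnrnpa1l2-ps2*, at 6.72, 7.93, 12.08 and 8.28. In both the 8 h value stood above the other 3. A region in *4930513D17Rik* instead had similar values at 8 h and in untreated cells, 9.77 and 10.16, and lower ones with SB-431542 and at 1 h, 5.51 and 6.65. *Mir6350* and *Gm12669* marked the remaining 2 of the 5 highest, at ratios of 1.68 and 1.67.

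In the opposite direction, a region 53.5 kb from *Steap3*, the gene of an iron reductase, had 10.41, 9.40, 6.09 and 5.36, so that both longer signalling states were low. The called peak spanned 552 bp in inhibited cells, 1194 bp at 8 h and 476 bp in untreated cells. Regions near *Fmr1os*, *Hnf4g* and *1700007P06Rik* were also among the 5 lowest at 8 h, with ratios from 0.60 to 0.61, and in the last of these the peak widened from 390 bp to 1862 bp. The lowest ratio in untreated cells was that of a region 111.4 kb from *Edn1*, which encodes endothelin, at 11.01, 10.65, 8.73 and 5.28. At 1 h the ratios of members stayed between 0.587 and 1.34, with the region 31.2 kb from *Tyrp1*, a pigment enzyme gene, at 6.88 over a peak of 1980 bp with SB-431542 and 9.25 over a peak of 645 bp at 1 h.

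**Figure D2:**
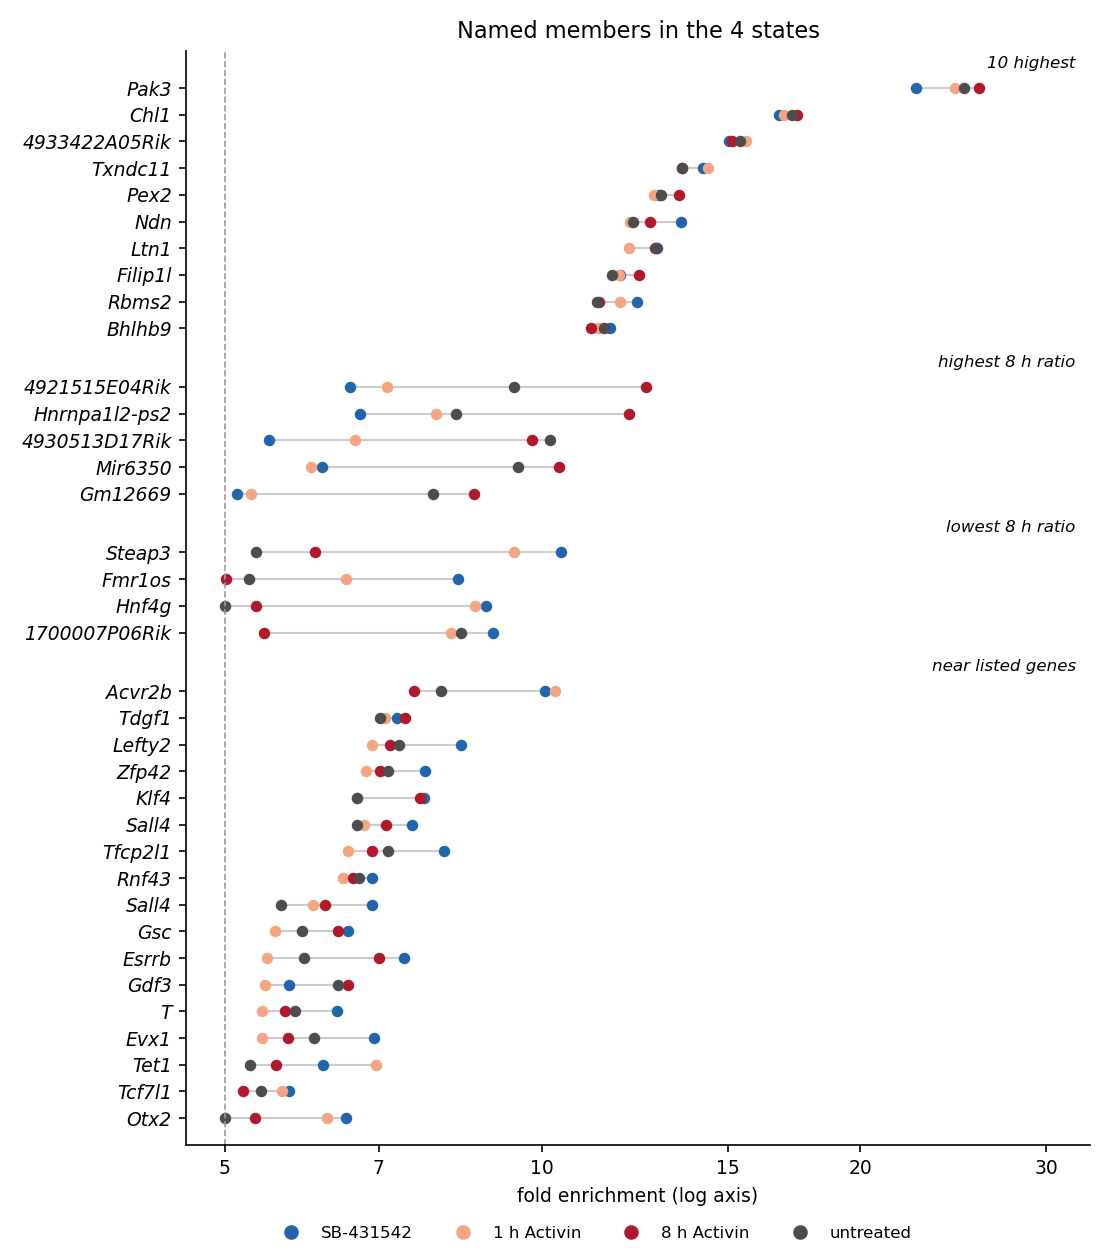
Fold enrichment (log axis) of named members, labelled by gene, with 1 point for each of the 4 states and the threshold of 5 dashed; the groups are the 10 highest minima, the 5 highest and 4 of the 5 lowest ratios of 8 h Activin to SB-431542, and the members within 50 kb of listed genes. The 10 highest sit between 11.1 and 25.9 with their points close together, and the members near listed genes between 5 and 10.3.

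The strongest members stood far above the rest. A region of 306 bp, 35.5 kb upstream of *Pak3* on the X chromosome, reached 22.58 in inhibited cells, 24.60 at 1 h, 25.94 at 8 h and 25.07 in untreated cells. Second was a region of 441 bp in an intron of *Chl1*, a neural cell adhesion gene, at 16.76, 16.94, 17.43 and 17.25. The third, 24.3 kb from *4933422A05Rik* and wholly inside soft-masked repeat sequence, had 15.03, 15.59, 15.11 and 15.38. In all 3 the values of the 4 states lay close together. The *Pak3* and *Chl1* windows aligned to each other over 105 bp at 97.1% identity, as did *Chl1* and a further member near *Dpy19l1* over 154 bp at 90.3%, whose values ran from 11.02 to 11.94. The other 7 of the 10 highest lay near *Txndc11*, *Pex2*, *Ndn*, *Ltn1*, *Filip1l*, *Rbms2* and *Bhlhb9*, with minima from 13.55 down to 11.12.

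Some of these 10 regions held repeated sequence. Reads were 51 bp long, and the central 300 bp of a region were therefore cut into words of 51 bases and the share that occurs once in the assembly was counted. In the windows near *Txndc11*, *Filip1l* and *Pex2* this share was 25.6%, 44.8% and 48.8%, and those windows held 45, 29 and 24 CpG. The share was 74.8% in *Chl1* and 80% near *4933422A05Rik*. It was 100% in the windows near *Pak3*, *Ndn*, *Ltn1*, *Rbms2* and *Bhlhb9*. A member near *Gm8579*, at 8.30, 7.43, 7.91 and 8.25, aligned along all 300 bp at 98.7% identity to *Rn18s-rs5*, a sequence related to 18S ribosomal RNA, and 48% of its words were single-copy. Exact CENP-B boxes (TTCGNNNNANNCGGG on either strand, where N is any base), which were looked for after these sequences had been seen, stood in 5 members and in 11 other distal shared regions. The 5 lay near *Chl1*, *Dpy19l1*, *Mir100hg*, *Arrdc4* and *Rab11fip4os2*. In addition, 3 members, near *Nxph1*, *Col19a1* and *Ccnh*, aligned to mitochondrial DNA over at least 150 bp, with values between 5.48 and 8.78, as did 7 other distal shared regions. The authors removed read pairs mapped to the mitochondrial genome or ambiguously, and the part of repeated sequence in the height of these peaks was not tested.

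Across all members, however, repeated sequence was not the rule. Every word was single-copy in 81.4% of members (95% Wilson interval 80.3 to 82.4) and in 80.9% of other distal shared regions (80.7 to 81.1). Under 50% of words were single-copy in 132 members, or 2.37% (2 to 2.8), and in 1.47% (1.41 to 1.54) of the others. This share changed with strength, from 1.86% of members whose minimum lay between 5 and 6 to 5.43% of those between 8 and 10 and 19.4% (9.75 to 35) of the 36 members at 10 or more. Soft-masked bases, the repeats that the assembly marks, made up a mean of 22.2% of a member's window and 29.6% of the window of other regions. Windows over 50% soft-masked were 16.3% of members and 24.4% of the others. They were 13.8% of the non-members whose minimum lay from 4 to 5. All intervals here cover counting error only, because regions are not replicates of a condition.

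Sequence families were found by aligning the central windows to each other. An alignment of at least 150 bp linked 708 members (12.7%) into 86 families, of which 7 had 20 or more members and together held 457. Counting only windows used as the query, since the search is not fully symmetric, a window aligned to another member in 12.6% (11.7 to 13.5) of members and in 9.25% (9.09 to 9.4) of other distal shared regions. The largest family had 128 members, 98% of whose bases were soft-masked at the median, and its median fold enrichment was 6.8, 6.22, 6.85 and 6.64 in the 4 states. Its typical window had 116813 copies in the genome, 16.9% of which fell in a region of any list and 0.201% in a member. Regions of any list covered 9.42% of the chromosomes and members 0.207%.

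Smaller families were accessible at a larger share of their copies. The second, with 122 members, had 1726 copies, 71.3% of them in a region of some list and 8.11% in a member. Its median levels were 7.07 in inhibited cells, 6.38 at 1 h, 7.86 at 8 h and 7.07 in untreated cells. The third, with 95 members, had 949 copies, 70.5% of them in a region and 6.74% in a member. The fourth and sixth, with 36 and 26 members, had 69.8% and 67.4% of their copies in a region, whereas the fifth and seventh, with 30 and 20 members, had 53.7% and 46.1%. The members of each of the 7 large families were spread over 13 to 20 chromosomes.

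Families differed in the motifs they carried, which the rule had not used. In the sixth family, whose typical sequence is printed above, the POU octamer (ATGCAAAT) stood in 18 of 26 windows, or 69.2%, against 3.92% of the 5541 members outside it. The YY1 motif (AAGATGGC) stood in 40.6% of the first family and in 2.39% of all members. YY1 is a zinc-finger protein that binds promoters and enhancers widely. CCAAT, the box bound by NFY, stood in 91.7% of windows in the family of 36 members and in 40.3% of all members. It was not particular to that family. Its share was 84.4%, 70% and 65.4% in the families of 128, 20 and 26 members. In the families of 122, 95 and 30 members it was 41%, 21.1% and 16.7%. Members of a family share ancestry and are not independent of each other.

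Matches to the CTCF motif were more frequent in the members than in other distal shared regions. Binding of CTCF was not measured. The core of the CTCF motif (CCANNAGNNGGC, either strand) stood in the central 300 bp of 712 members, 12.8% (11.9 to 13.7), and of 9844 others, 7.13% (6.99 to 7.26). Weighting the others to the G+C content of the members left their share at 7.18%. A longer form of the right side of the motif (AGNNGGCGC), chosen after the data had been seen, gave 7.19% and 3.17%. The motif was concentrated at the middle of the accessible core, where a 50-bp bin within 100 bp of the centre held it in 2.65% of members, compared with 0.256% for a bin more than 400 bp away. In the others these shares were 1.52% and 0.299%. Both sets had a peak at the centre, and that of the members was higher and broader.

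**Figure D3:**
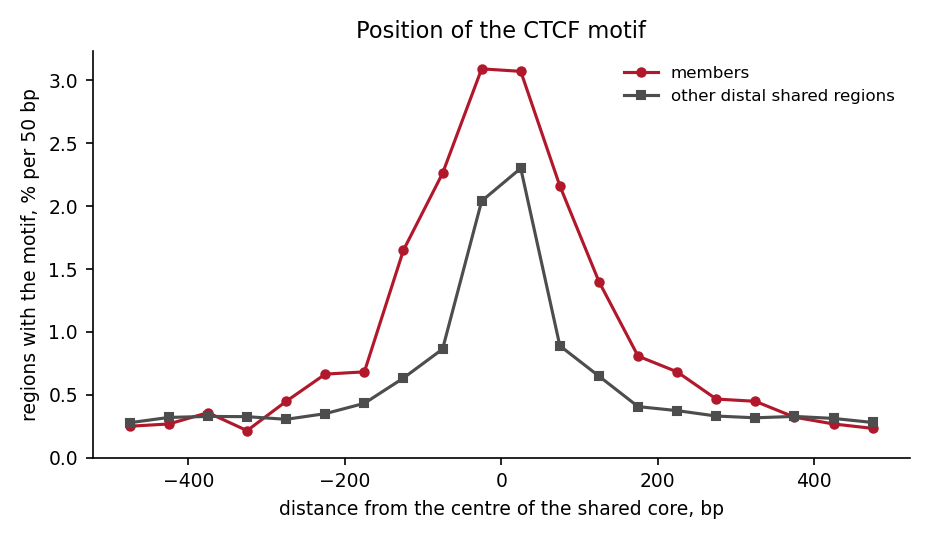
Share of regions with the CTCF motif in each bin of 50 bp (y axis) against distance from the centre of the core shared by the 4 lists (x axis), for the 5567 members (red) and the 138138 other distal shared regions (grey). In the 2 bins next to the centre the members reach 3.09% and the others 2.30%, and both fall below 0.4% beyond 400 bp.

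The share with a CTCF motif did not keep increasing with strength. It was 2.3% for distal shared regions whose lowest value was under 2, 11.4% from 2.5 to 3, 13.8% from 3 to 4 and 14.1% (13.4 to 14.9) from 4 to 5, just outside the threshold. Within the members it was 13.7% (12.6 to 14.9) from 5 to 6, 12.1% from 6 to 7, 11.2% from 7 to 8, 7.69% (4.86 to 12) from 8 to 10 and 5.56% (1.54 to 18.1) at 10 or more. CTCF motifs were thus most frequent around the threshold. Among the 100 highest members only 5 held one, 23 aligned to another member and 13 had under 50% of single-copy words.

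**Figure D4:**
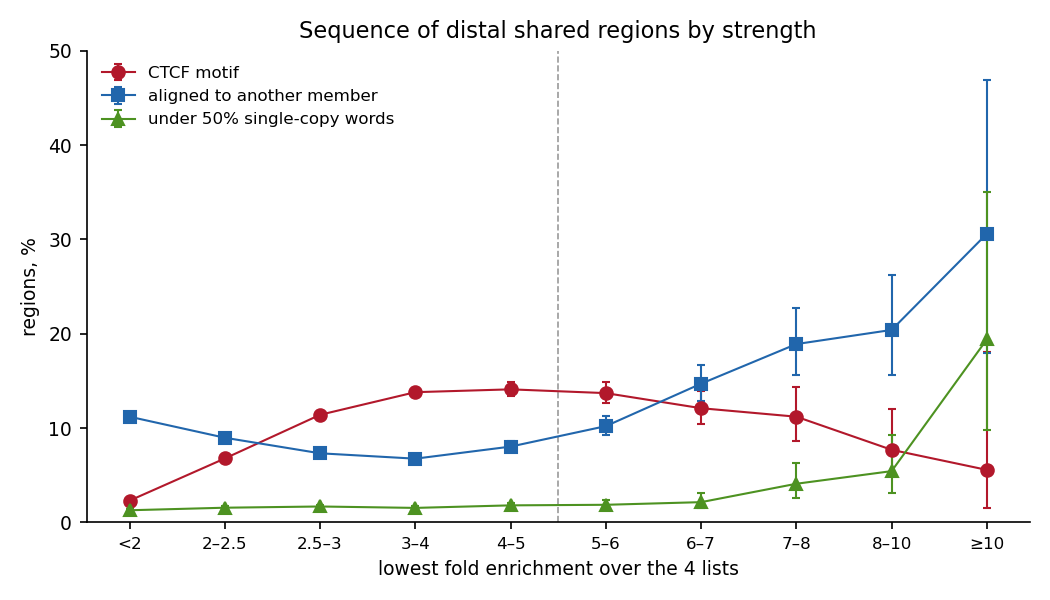
Share of distal shared regions (y axis, with 95% Wilson bars for counting error) in bins of the lowest fold enrichment over the 4 lists (x axis), for the CTCF motif (red circles), alignment to another member (blue squares) and under 50% single-copy words (green triangles); members lie right of the dashed line. The CTCF share is at its highest, 14.1%, in the bin from 4 to 5 and is 5.56% at 10 or more, where alignment to another member reaches 30.6%.

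Members with the CTCF motif were narrower and no stronger than the rest. Their median width was 798 bp, against 968 bp for members without it, and the median of their lowest value was 5.62, against 5.73. Median fold enrichment was 6.42, 5.88, 6.32 and 6.18 with the motif and 6.55, 6.03, 6.51 and 6.17 without. The 2 groups of members had similar levels in all 4 states. Both had been chosen by the same threshold on this value in every list, so the similarity is in part fixed by the rule. It does not show whether the motif goes with level among distal regions in general. The *Ltn1* member printed above, in an exon of the gene of an E3 ubiquitin ligase of ribosome quality control, was the one region among the 10 highest with the motif and had 12.83, 12.09, 12.79 and 12.81.

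Of the 26 motifs searched, 8 were more frequent in members with intervals apart from those of the others, 2 were less frequent, and 13 had shares within 1.1 times of each other. Next to CTCF, 5 of the higher ones were rich in G+C: the SP box (GGGCGG) at 12.3% against 6.42%, the SMAD GC site (GGCGCC) at 4.29% against 2.13%, TFAP2 (GCCNNNGGC) at 10.2% against 6.93%, NRF1 (GCGCATGC) at 0.611% against 0.325% and ZIC (CCTGCTG) at 19.3% against 13.7%. The SP share was already 10.9% (10.3 to 11.6) in non-members whose lowest value lay from 4 to 5. Matches of these motifs can share bases, and a CTCF match can hold a ZIC match. With the others weighted to the members' G+C content, the ratio became 1.47 for SP, 1.61 for the SMAD GC site, 1.62 for NRF1, 1.23 for TFAP2 and 1.28 for ZIC, lower in each case than without weighting. It was 1.78 for CTCF, close to its unweighted 1.79, and was higher than unweighted at 1.79 for the OCT4-SOX2 composite site and 1.5 for the POU octamer, the other 2 motifs of the 8.

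Motifs of pluripotency and signalling factors were divided. The POU octamer stood in 4.22% (3.72 to 4.78) of members and 3.15% (3.06 to 3.24) of others, and the OCT4-SOX2 composite site (TTNTNATGCAA), through which both factors bind together, in 0.754% (0.559 to 1.02) and 0.494% (0.458 to 0.532). ESRRB (TCAAGGTCA), an orphan nuclear receptor of pluripotent cells, went the other way, at 0.808% (0.605 to 1.08) and 1.15% (1.1 to 1.21), as did the site of GATA factors (AGATAA) at 13.3% (12.4 to 14.2) and 14.9% (14.7 to 15.1). For FOXH1 (AATCCAC), the partner of SMAD2, the shares were 3.31% (2.87 to 3.81) and 3.25% (3.16 to 3.35). The SMAD palindrome (GTCTAGAC) was in 12 members, 0.216% (0.123 to 0.376), and in 0.292% (0.265 to 0.322) of others. For both of these the intervals overlapped. After the same weighting, GATA was at 13.4% in the others, so that its difference was no longer present. The motif of TCF/LEF (CTTTGA), the effector of WNT signalling, stood in 20.1% (19 to 21.1) of all members and 20.2% (20 to 20.4) of the others.

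**Figure D5:**
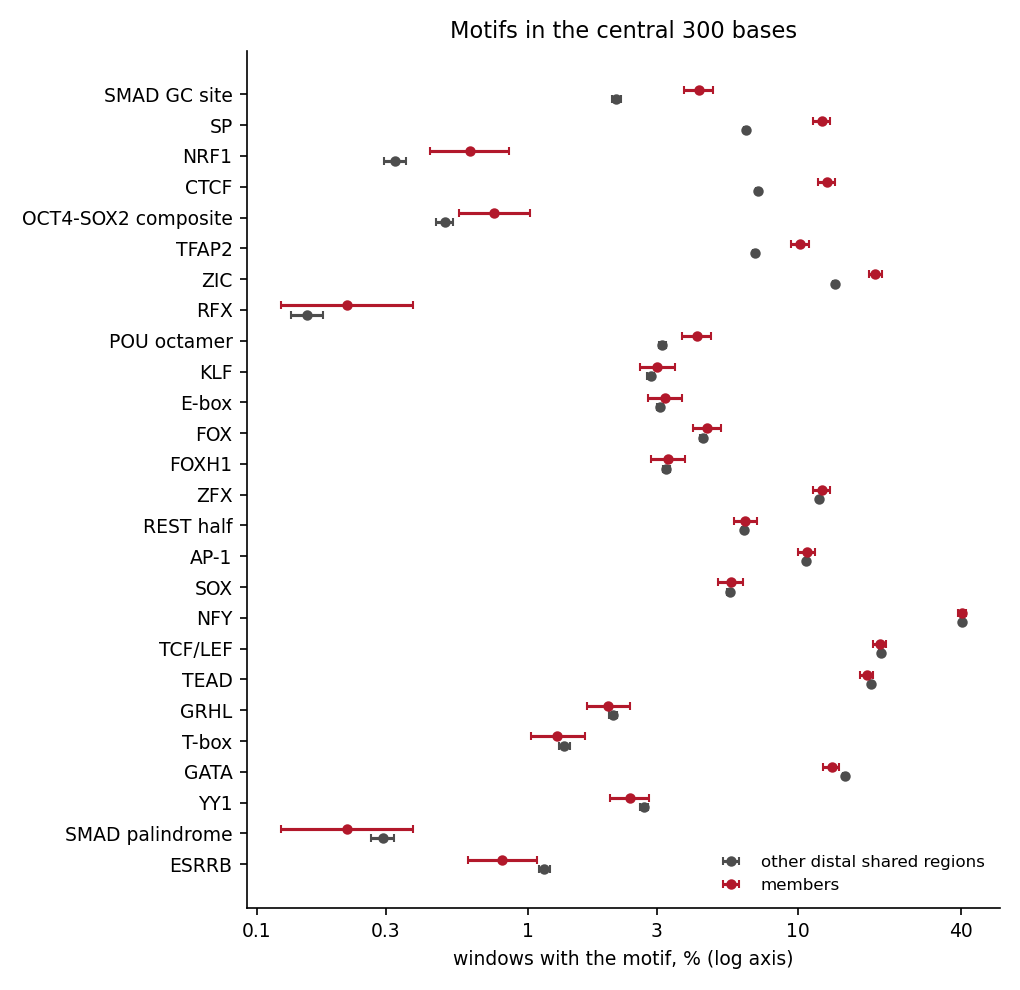
Share of central windows of 300 bp that hold each of the 26 motifs (x axis, log), for the 5567 members (red) and the 138138 other distal shared regions (grey), with 95% Wilson bars for counting error; motifs are ordered by the ratio of the shares. SMAD GC site, SP, NRF1 and CTCF stand at the top, and ESRRB and the SMAD palindrome at the bottom.

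The base composition differed in the same direction. G+C made up a median of 49.3% of the window in members and 47.7% in others. At least 10 CpG dinucleotides, the density of a small CpG island, were present in 569 members, 10.2% (9.45 to 11), and in 3.45% (3.35 to 3.54) of the others. This share rose with strength on both sides of the threshold. It was 2.06% of distal shared regions whose lowest value was under 2, 5.93% from 3 to 4 and 7.62% (7.09 to 8.2) from 4 to 5. Some members overlapped promoters that the curated set lacks: 418, or 7.51% (6.85 to 8.23), covered a start site of GENCODE M21 or of a predicted RefSeq transcript, compared with 4.44% (4.33 to 4.55) of the others. Among these 418, 40.7% (36.1 to 45.4) had 10 CpG or more, against 7.75% (7.05 to 8.51) of the remaining members. Members outside such start sites were still above the others outside them, of which 2.89% (2.8 to 2.98) had 10 CpG.

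Members were closer to genes than other distal shared regions, although the rule had only set the minimum distance. Their median distance to a start site was 47600 bp, compared with 67500 bp, and 32% (30.8 to 33.3) lay over 100 kb away, against 41.2% (40.9 to 41.4). Members were in excess between 10 and 50 kb, with 37.8% (36.5 to 39) against 30.4% (30.1 to 30.6), and between 50 and 100 kb, with 16.9% (15.9 to 17.9) against 15.4% (15.2 to 15.6). The centre was intergenic in 61% (59.7 to 62.3), in an intron in 36.4% (35.1 to 37.7) and in an exon in 2.62% (2.23 to 3.08) of members, compared with 63.7%, 34.1% and 2.21% of the others. Median width was 947 bp, against 904 bp. The widest member, 3798 bp near *Gm47415*, held a GENCODE start site of *Gm35326*, and the next widest lay near *Tlr4*, *Chsy3*, *Pak3* (a second region, in an intron) and *Daam2*.

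Chromosomes contributed unequally. On the X chromosome 233 of 3304 distal shared regions were members, 7.05% (6.23 to 7.98), and on chromosome 14 the share was 5.46% (4.76 to 6.26). It was lowest on chromosome 11, at 2.6% (2.3 to 2.94), and next on chromosome 6, at 3.06% (2.76 to 3.39). The density of distal shared regions ran the other way. It was 19.3 per Mb on the X chromosome and 28.3 on chromosome 14, compared with 76.9 on chromosome 11, 75.9 on chromosome 6 and 52.7 over all chromosomes. Per Mb, members were less dense on the X chromosome (1.36) and chromosome 14 (1.55) than over all chromosomes (2.04).

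Most members had no other member within 50 kb. The gap to the next member had a median of 141 kb, and 1293 members (23.2%) had another within 50 kb. The rule kept only 2.04 members per Mb, and these gaps were not compared with those of as many regions placed at random. Only 3 runs held 5 members with gaps under 50 kb. One, between *Mir674* and *Fam98b* on chromosome 2, spanned 84 kb, and its region with the highest minimum had 8.74, 8.42, 8.89 and 8.43 in the 4 states. Another lay inside *Bmpr1b*, which encodes a type I receptor for bone morphogenetic proteins, where that region had 8.70, 8.46, 8.58 and 8.14. In the third, near *A430085M09Rik*, it had 6.90, 6.88, 9.50 and 6.91, so that 8 h alone was high. No other state stood apart in these 3 regions.

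Members were also set against genes listed by function. Of 26180 curated RefSeq genes, 19.4% had a member within 50 kb of a start site. Of the 18 listed pluripotency genes 8 did (44.4%), of the 18 genes of the NODAL pathway 4 (22.2%), of 14 mesendoderm genes 3 (21.4%) and of 14 WNT pathway genes 2 (14.3%). Among the remaining lists, chromosome architecture had 5 of 13, neural genes 2 of 12, genes of blood, muscle and liver 2 of 11, housekeeping genes 3 of 12 and the loci shown in the study 2 of 10. The pluripotency list and the architecture list (38.5%), which names *Ctcf* and the cohesin loader *Nipbl*, had the highest shares. With lists this short a few genes decide the share.

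The pluripotency genes with a member were *Sall4*, *Esrrb*, *Klf4*, *Zfp42*, *Tfcp2l1*, *Tdgf1*, *Tet1* and *Otx2*, while *Pou5f1*, *Sox2* and *Nanog* had none. A region 26.6 kb upstream of *Zfp42*, the gene of the zinc-finger protein REX1, had 7.75 with SB-431542, 6.81 at 1 h, 7.02 at 8 h and 7.14 in untreated cells. Near *Klf4*, which encodes a reprogramming factor, a region 17.5 kb away had 7.72, 6.68, 7.66 and 6.68. *Sall4* had 2 members, the stronger at 7.52, 6.78, 7.11 and 6.67, 23.9 kb upstream. In *Esrrb* an intronic region had 7.4, 5.49, 7 and 5.95, and in *Tfcp2l1* another had 8.07, 6.54, 6.89 and 7.14. A region near *Otx2*, a homeobox gene of the epiblast and the anterior nervous system, was close to dropping out, at 6.51, 6.25, 5.34 and 5.00. *Tet1*, the gene of an enzyme that oxidises methylated cytosine, was unlike these in having its highest value at 1 h, at 6.2, 6.95, 5.59 and 5.29. This region covered a GENCODE start site of *Tet1* and a predicted start site of *Gm51805*, which the curated set lacks.

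In the NODAL pathway, members lay near 4 of the 18 listed genes: a ligand, a receptor, a co-receptor and an inhibitor. This share, 22.2%, is close to the 19.4% of all curated genes. The region near *Acvr2b*, the gene of a type II Activin receptor, was the strongest of all near listed genes, at 10.05 with SB-431542, 10.27 at 1 h, 7.56 at 8 h and 8.02 in untreated cells. It was nearer to the start of *Xylb*, 5.4 kb upstream of it. Both longer signalling states were thus lower than the other 2, by less than 1.5 times. The called peak spanned 551 bp with SB-431542, 518 bp at 1 h, 976 bp at 8 h and 534 bp in untreated cells. The region near *Tdgf1*, which encodes the NODAL co-receptor CRIPTO, hardly varied, at 7.28, 7.09, 7.41 and 7.02, and lay 5.2 kb upstream of *Rtp3*. Near the ligand gene *Gdf3* a region 7 kb from *Dppa3* had 5.76, 5.46, 6.55 and 6.41. The CTCF-motif region upstream of *Lefty2*, the gene of a secreted NODAL inhibitor, had 8.38, 6.90, 7.18 and 7.31, highest in the inhibited state. *Nodal*, *Smad2*, *Smad3*, *Smad4* and *Foxh1* had no member within 50 kb.

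Among mesendoderm and WNT genes, *T*, which encodes Brachyury, had a member 34.5 kb away at 6.39, 5.43, 5.70 and 5.83. *Gsc*, an organiser homeobox gene, had one at 6.54, 5.58, 6.4 and 5.92, and *Evx1*, a homeobox gene of the primitive streak, one at 6.92, 5.42, 5.74 and 6.08. The region near *Tcf7l1*, a repressor of WNT targets, had 5.75, 5.67, 5.21 and 5.41, and that near *Rnf43*, a ubiquitin ligase that removes WNT receptors, 6.89, 6.47, 6.61 and 6.71. Over the 17 members near genes of these 4 lists, the highest value was 1.05 to 1.36 times the lowest. The highest was that of SB-431542 in 13 of them and the lowest that of 1 h Activin in 10, the lists in which all members also tended to be highest and lowest.

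Regions that missed the rule near the same genes show its edge. A region 10 kb upstream of *Lefty1* had 4.86 with SB-431542, 6.02 at 1 h, 5.95 at 8 h and 5.60 in untreated cells, and one 11.8 kb upstream of *Nodal* had 4.65, 5.48, 5.92 and 4.79. The direction of fold enrichment differed between loci. A region within 50 kb of *Pmepa1* had 6, 4.62, 4.28 and 4.29, and one near *T* had 5.02, 4.81, 4.21 and 4.45. The local background, estimated from fold enrichment and p, was 71.6, 96.2, 98.5 and 87.6 at the *Pmepa1* region. At the *Lefty1* region it was 40.2, 74.5, 88.6 and 92.1. Fold enrichment alone therefore does not give the direction of read pileup, and the part of background was not tested. Of 2 such regions near *Smad7*, one had 5.28, 4.70, 4.71 and 4.34 and the other 3.78, 4.05, 5.17 and 3.57. A region near *Trh* had 5.40, 4.73, 4.14 and 5.58. Near *Eomes*, a mesendoderm T-box gene, 3 regions reached 5 in some lists, and the most variable had 3.25, 3.95, 8.08 and 7.24. The locus did contain a member farther than 50 kb from *Eomes*, at chr9:118404970-118406810, with 5.76, 5.74, 6.49 and 6.05. RefSeq annotates a promoter element there as raising *Eomes* and *Platr11* expression and lowering that of *Vill* in mouse embryonic stem cells.

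Comparison with functional elements annotated by RefSeq was added after the data had been seen. An annotated enhancer overlapped 27 members, 0.485% (0.334 to 0.705), and 403 other distal shared regions, 0.292% (0.265 to 0.322). Of the 27, 26 came from the VISTA collection, which tests sequences in transgenic mouse embryos, and 19 of these drove expression in the brain or neural tube. In the others 185 of 343 VISTA elements did so. The strongest was mm1315, 16.3 kb from *Masp1*, active in forebrain, hindbrain and neural tube, with 10.02 with SB-431542, 9.34 at 1 h, 9.39 at 8 h and 8.90 in untreated cells. Element mm782, 52.5 kb from *Slc35f1*, had 8.95, 8.15, 7.65 and 7.50. Element mm1102, 67.2 kb from *Wnt3* and active along the neural tube and brain, had 5.68, 5.80, 5.11 and 5.12, all near the threshold.

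Further annotated members were in the beta-globin locus, whose genes are expressed in red blood cells. Hypersensitive site HS2 of the locus control region, 8.2 kb upstream of *Hbb-y*, had 5.64, 5.22, 5.67 and 5.57, a flat profile over the states. Its AP-1 site as annotated by RefSeq is in capitals (chr7:103861033-103861152) and holds the AP-1 motif (TGANTCA) 2 times, 284 bp from the centre of the core.
HS2: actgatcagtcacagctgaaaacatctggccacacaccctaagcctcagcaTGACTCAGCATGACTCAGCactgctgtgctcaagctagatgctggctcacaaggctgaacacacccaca
HS-85.5, printed above, had 5.85, 5.40, 5.93 and 5.58. Its CTCF site of 28 bp matches the searched motif but lies 208 bp from the centre, outside the window, so this member is not among the 712 counted.

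The labelled cell type was checked at promoters. All 8 pluripotency markers (*Pou5f1*, *Sox2*, *Nanog*, *Sall4*, *Zfp42*, *Lin28a*, *Utf1* and *Tdgf1*) had a peak over a start site in every list, with fold enrichment from 2.12 to 5.06. Among markers of other types, *Alb*, *Hnf4a* and *Ckm* had none in any list, while *Myod1*, *Gata1*, *Spi1*, *Pax6* and *Neurod1* had one in all 4. Fold enrichment at these ran from 2.06 for *Gata1* at 1 h to 3.7 for *Neurod1* at 8 h, which overlaps the range of the pluripotency markers. A peak at a promoter does not report expression.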

How the data were processed

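The values analysed were 4 peak lists, 1 for each state. According to the methods of the study, 51-bp read pairs were trimmed with cutadapt 1.9.1 and aligned to mm10 with BWA 0.6.2. Duplicates were marked with Picard, mitochondrial reads were removed with bedtools 2.26.0, discordant and ambiguous pairs were filtered out, libraries of a state were merged, and broad peaks were called with MACS2 2.1.1.20160309 without a control. The fold enrichment deposited by the authors is a ratio of read pileup to the background estimated around each peak. Deposited with it are the -log10 p and the -log10 q of each peak, of which the second ranked peaks for 1 alternative. The fifth column, a score the authors deposited, was not used. Replicates were pooled. The lists hold no read counts, and the methods give the depth of the merged samples only as a range. Differences in depth between states could therefore not be measured directly. The local background estimated from fold enrichment and p had a median of 32.7 with SB-431542 over the other distal shared regions. It was 30.5 at 1 h, 26.2 at 8 h and 28.1 in untreated cells. This is not a read count, and its relation to depth was not tested. The lists held 209212 to 234758 peaks.

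Peaks were merged and start sites taken from 45756 curated RefSeq transcripts of the GRCm38.p6 annotation. Sequence was read from its assembly, soft-masked as distributed. Motifs were searched in the central 300 bp of the core that the highest peaks of the 4 lists share. Windows were aligned with BLAST+ 2.17.0 (e-value 1e-10), and alignments of at least 150 bp defined families. Analyses used Python 3.11.15, pandas 2.3.3, numpy 2.4.6 and scipy 1.17.1, and functions were tested on simulated data. No test was run, since each state is 1 list. Wilson intervals cover counting error only. The members, motifs and gene lists were chosen with earlier results of these data known. Regions were named by nearest gene and chosen as the 10 with the highest minimum, the 5 with the highest and lowest ratio to SB-431542 in each state, the 5 widest, the 5 on either side of the threshold, those in the longest runs, and those within 50 kb of listed genes. A region and a marker that these rules include are not reported here.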

Additional observations from a re-analysis of the deposited data

How the results depend on the processing

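Of 80 recalculations under other settings, 58 stayed within 1.5 times of a count or within the interval of a share. With a threshold of 4 the number of members was 14289, the CTCF share of other distal shared regions 6.65% and the members 1.5 times higher or lower at 8 h 246. With a threshold of 6 these were 2074, 7.29% and 11, the CTCF share of members was 11.3% and their intergenic share 62.6%. Leaving out cores over 50% soft-masked gave members a CTCF share of 13.7% and an intergenic share of 58.5%. Searching the whole core gave CTCF shares of 18.1% in members and 10.7% in others. The longer right side of the motif gave 7.19% and 3.17%, and leaving out sequence families 14% and 7.54%; both settings were chosen after the data had been seen. The share of others was 6.85% beyond 5 kb from start sites, 7.59% with lists cut to the length of the shortest, 6.9% without the SB-431542 list, 6.9% without 1 h Activin, 6.72% without 8 h Activin and 6.78% without untreated. In all 19 settings that give both shares the members' CTCF share was the higher, by 1.55 to 2.27 times. The count at 8 h has no value without the SB-431542 or 8 h list. The lists hold assembled chromosomes alone, so that setting changed nothing. No paired analysis was possible because the columns merge both replicates. Depth per state could not be measured directly from the lists, and no interval here reflects biological variation.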
